A study of Homo sapiens with 42 samples.

Results

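The loops described here are the chromatin contacts around 6 protein kinase C genes, PRKCA, PRKCB, PRKCD, PRKCE, PRKCH and PRKCQ, in K562 cells treated with the phorbol ester PMA. A loop belonged to them when the start of either anchor lay in a window of 350 to 800 kb drawn around 1 of the kinase genes, a rule that used positions and no contact values. The rule found 73 of the 33914 loops in the deposited table: 9 at PRKCA, 8 at PRKCB, 10 at PRKCD, 14 at PRKCE, 19 at PRKCH and 13 at PRKCQ. Of these, 52 had an anchor over the body of their kinase gene and 4 had both anchors inside it.

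K562 is an established human leukemia cell line, labelled wild type here, and PMA drives it toward a megakaryocyte-like state. Cells received PMA at 25 nM for 0 h, 6 h or 72 h, and the medium of the longer treatment was renewed along the way, so PMA and time in culture cannot be told apart. In situ Hi-C, which joins and sequences DNA ends that lie close together in the nucleus, was run on 42 samples, 14 at each time, from 4 biological replicates per time. Technical replicates were summed into 12 libraries of 736929 to 1472197 contacts over all loops. The 72 h replicates 3 and 4 differed no more than sampling noise gives (chi-square test of their counts over 24132 tested loops, p = 0.367). They therefore count as 1 sample in each mean ± SD (n = 4 at 0 h and 6 h, n = 3 at 72 h). The edgeR tests used all 12 libraries and so counted them separately. Replicates 3 and 4 were also close at 0 h and 6 h (chi-square test, p = 0.0253 and 0.00621). Chi-square over its degrees of freedom was 1.018 and 1.023 there, against 1.056 to 1.272 for every other pair within a time. Those replicates may thus be less separate than n = 4 implies. The labels do not say whether biological replicates came from separate cultures or days, so p-values measure the spread between these libraries. RNA was not measured in these libraries, and nothing below gives the level of a kinase.

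Protein kinase C enzymes are serine/threonine kinases that phospholipase C signalling turns on through the lipid diacylglycerol. Phorbol esters such as PMA bind the same C1 domains in place of diacylglycerol, and prolonged exposure is known to deplete the phorbol-responsive enzymes from many cells. PRKCA and PRKCB encode the calcium-dependent isoforms alpha and beta, while PRKCD, PRKCE, PRKCH and PRKCQ encode delta, epsilon, eta and theta, which respond to diacylglycerol and phorbol esters without calcium. PMA is a standard inducer of megakaryocyte differentiation of K562, and these kinases are among its direct receptors.

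Each loop is a pair of 10 kb anchors on the same chromosome, and its value is the number of contacts between them. Values below are normalized contacts, that is, contacts per 1000000 after TMM scaling of each library over the tested loops. Of the 73 loops, 66 had enough contacts for a test, with mean raw counts of 6.75 to 109 and a median of 33.4. By the exact Poisson method the 95% interval is 22.7 to 46.3 around 33 raw contacts and 4.8 to 18.4 around 10 of them, for counting error alone. A change is called at an edgeR adjusted p under 0.05.

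Of the 6 kinase genes, only PRKCE had its RefSeq transcript start inside a member anchor. That start, base 45651675 of chromosome 2 (GRCh38.p14, plus strand), lay in the left anchor of loop3568, the member with the smallest p at 72 h. The nearest member anchor was 2.6 kb from the PRKCA start, 11.6 kb from PRKCH, 21.3 to 28.8 kb from the PRKCD starts, 26 kb from PRKCB and 79.4 kb from PRKCQ. For PRKCH the start used is base 61321579, well inside a gene span that opens at base 61187468. A member anchor, chr14:61190001-61200000, lies near that outer end of the span. HIF1A, which encodes the alpha subunit of hypoxia-inducible factor 1, had its promoter in an anchor of another loop that rose, loop26919 of the PRKCH window. Sequence before these starts is shown because the anchors of rising loops hold it. For PRKCE the letters are limited to a pair of 30-base stretches, at chr2:45651426-45651455 and chr2:45651631-45651660 on the plus strand, since the upstream window lies within the annotated span of the gene. For HIF1A the 250 bases before the start are given, chr14:61695263-61695512 on the plus strand. Capitals mark matches to a loose core of the motif of CTCF, a protein that sits at many loop anchors, and to the GC box, read on either strand.
PRKCE upstream, distal: ctgcttcgcCCAGGAGGCGGCggccccggc
PRKCE upstream, proximal: ctcgtccCCGCCCcgtcccaCCGCCCcatc
HIF1A upstream: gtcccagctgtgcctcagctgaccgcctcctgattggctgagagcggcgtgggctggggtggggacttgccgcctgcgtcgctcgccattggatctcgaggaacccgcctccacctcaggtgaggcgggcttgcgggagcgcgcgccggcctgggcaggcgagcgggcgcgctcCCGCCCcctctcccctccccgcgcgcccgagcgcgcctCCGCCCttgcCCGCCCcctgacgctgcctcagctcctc

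The 250 bases before the PRKCE start held 1 CTCF core match, at -240 to -229 from the start, and 3 GC boxes, while those before HIF1A held 3 GC boxes and no CTCF core match. On either strand, 2.02% of 35116 RefSeq promoter windows of the same length held the loose CTCF core and 42.6% held the GC box GGGCGG. The AP-1 letters TGANTCA, which 6.57% of windows held, were in neither of these. Nor were the GATA letters AGATAA, held by 9.17%. The EGR letters GCGNGGGCG were also in neither (8.41% of windows). For the core of the hypoxia response element only the form ACGTG was searched, and it was in neither (18.5%). The form GCGTG was not searched, and the HIF1A letters above hold it. A match is a description of the letters and not a measured binding site.

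**Figure D1:**
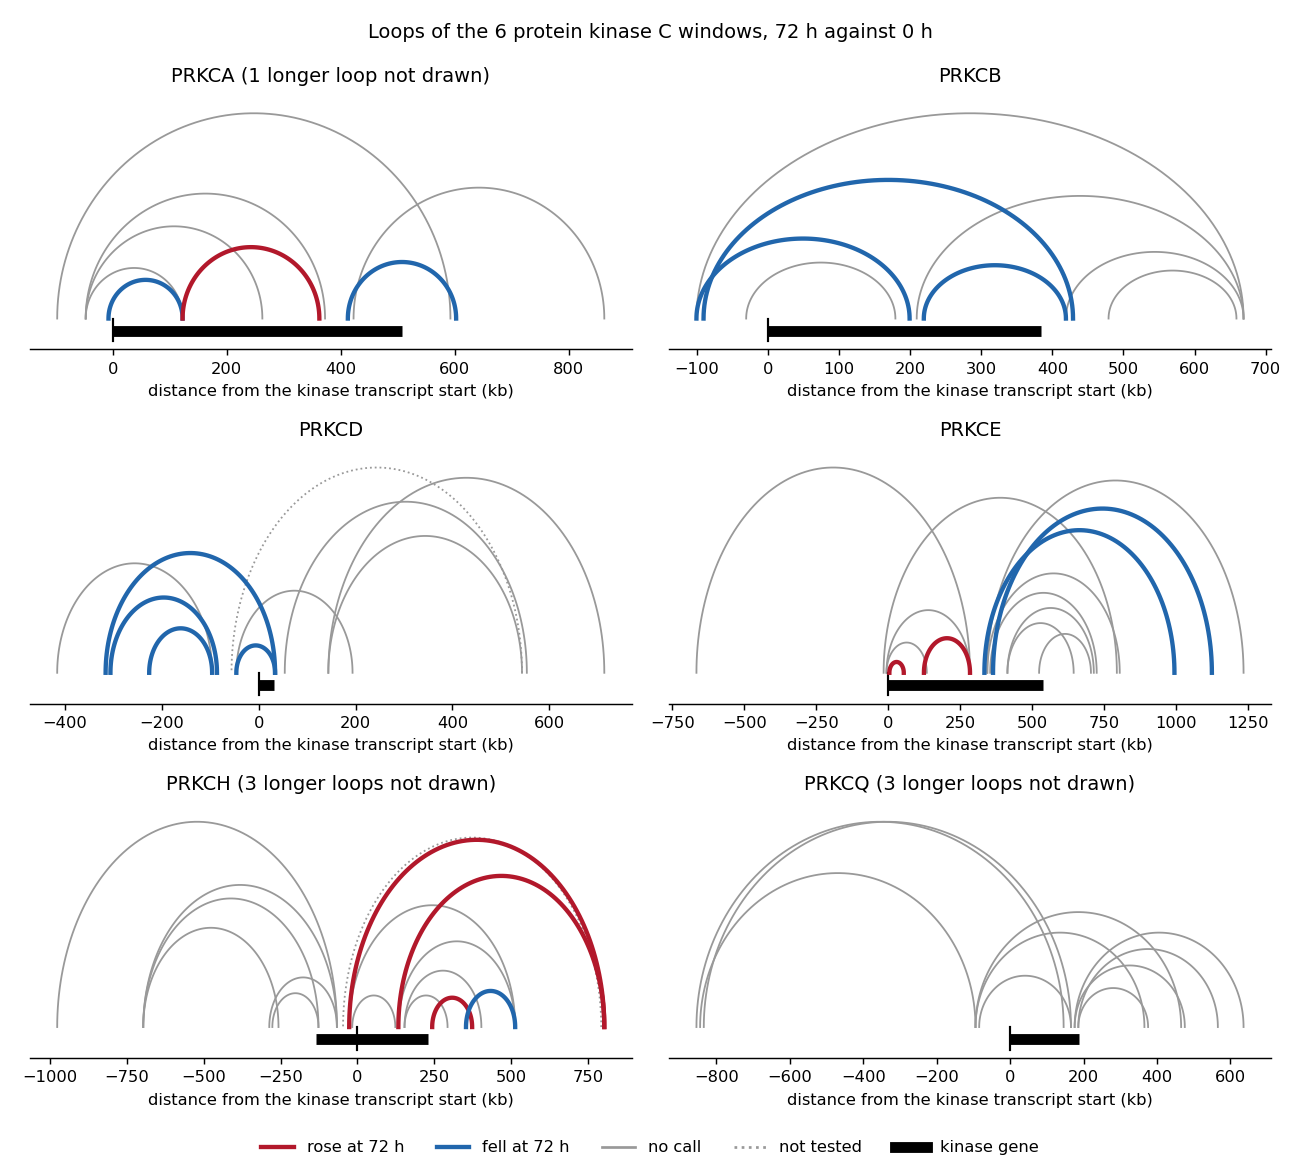
Loops of each window drawn as arcs between anchor centres, with the distance from the kinase transcript start in kb on each horizontal axis (scales differ between panels) and arc height proportional to length. Thick red arcs rose and thick blue arcs fell at 72 h against 0 h (edgeR adjusted p under 0.05), thin grey arcs had no call, dotted arcs were not tested, and black bars are the kinase genes. The 6 rises lie at PRKCA, PRKCE and PRKCH, while PRKCB and PRKCD hold only falls and PRKCQ holds no call.

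At 6 h against 0 h, the first question was which contacts around the kinase genes changed early. Of the 66 tested loops, 2 changed, both downward, 1 at PRKCD and 1 at PRKCA. This is 3.03% of the members, against a background of 6.41% of all 24132 tested loops (2.34% rose and 4.07% fell). At 72 h against 0 h, 18 changed, 6 upward and 12 downward, which is 27.3% against a background of 33.6% (16.7% rose and 16.9% fell). The share called in the windows was thus below the background at both times, and no enrichment of change at these genes is read from it.

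Between 6 h and 72 h, 16 of 66 loops changed, 4 upward and 12 downward, which is 24.2% against a background of 20.5% (10.7% rose and 9.81% fell). All 3 comparisons share libraries in pairs, so their counts are not independent. The median log2 fold change of the members was 0.04, 0.02 and -0.02 in the 3 comparisons, and that of all tested loops was 0.01, 0.01 and 0.00. Over all comparisons 26 member loops changed and 40 did not pass the test in any, and 8 loops changed between 6 h and 72 h without passing either test against 0 h.

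Within biological replicates 1 and 2 alone, the counts of changed loops were 0, 9 and 7 in the same order, and within replicates 3 and 4 alone they were 0, 6 and 5. Scaling to the total count moved the 72 h against 0 h split from 6 up and 12 down to 7 up and 8 down. DESeq2 called 1, 10 and 6, and the 8 loops it did not call at 72 h were loop5523, loop5528, loop5530, loop26915, loop28583, loop28588, loop29925 and loop29926. At 72 h against 6 h DESeq2 kept the calls of loop3568, loop3569, loop3570, loop3574, loop19922 and loop26920 alone. With a correction for loop length (an offset per library fitted on length), neither fall at 6 h passed, and loop3568 of PRKCE rose instead (log2 fold change 0.42, edgeR adjusted p = 0.0405). The 6 h count of 2 became 1 without any 1 of 6 libraries (0 h replicates 1, 2 and 3, and 6 h replicates 1, 2 and 4). The 72 h against 6 h count of 16 became 10 without 6 h replicate 4 and 10 without 72 h replicate 1.

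**Figure D2:**
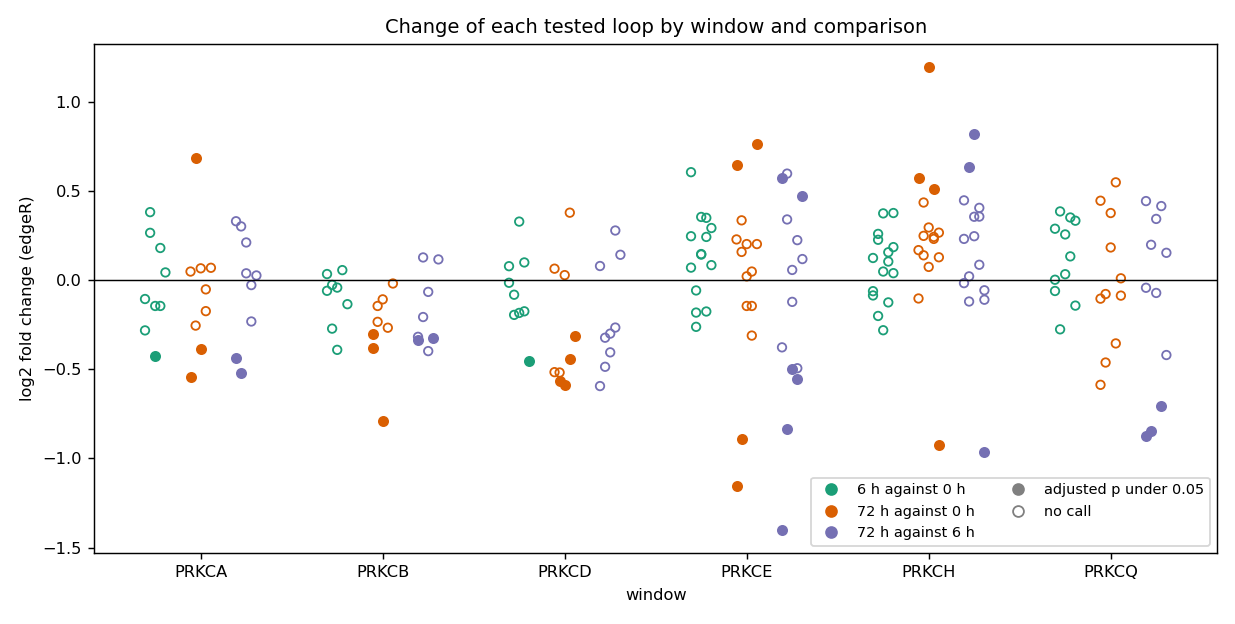
Log2 fold change (edgeR) of each of the 66 tested loops, by window, for 6 h against 0 h (green), 72 h against 0 h (orange) and 72 h against 6 h (purple). Filled points have an adjusted p under 0.05 and open points do not. All 8 PRKCB loops lie below 0 at 72 h against 0 h, and 13 of 15 PRKCH loops lie above it. Most points of these windows are open there, and loops that share an anchor are not separate observations.

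Summed over its tested loops, PRKCE had the most normalized contacts at 0 h, 572.5 ± 15.6 (SD, n = 4) over 14 loops, followed by PRKCB with 496 ± 15 over 8. PRKCH held 391 ± 19.6 over 15 loops, PRKCA 376 ± 28.9 over 9, PRKCQ 340.5 ± 12.5 over 11 and PRKCD 326 ± 20.1 over 9. PRKCH and PRKCA, PRKCA and PRKCQ, and PRKCQ and PRKCD overlapped in their 0 h libraries, so these neighbours in the order did not differ beyond their spread. The sums depend on how many loops were listed and on their lengths, and say nothing of the activity of the genes.

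The PRKCD sum was 286 ± 11.5 at 6 h and 260 ± 14.5 at 72 h, and each later library lay below every 0 h library. The PRKCB sum was 477 ± 45.1 at 6 h, overlapping 0 h, and 408 ± 33.6 at 72 h, where the highest library (443.6) lay below the lowest 0 h library (486.6). The PRKCH sum went the other way, from 391 to 415 ± 23.8 and 465 ± 9.66, with every 72 h library above every 0 h library. PRKCA (356 ± 15.2 and 339 ± 25.9) and PRKCQ (346 ± 25.3 and 342 ± 22.9) overlapped 0 h at both later times, and PRKCE (624 ± 28.4 and 614 ± 32.2) lay above 0 h at 6 h and overlapped it at 72 h. No test was made over a sum of members.

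**Figure D3:**
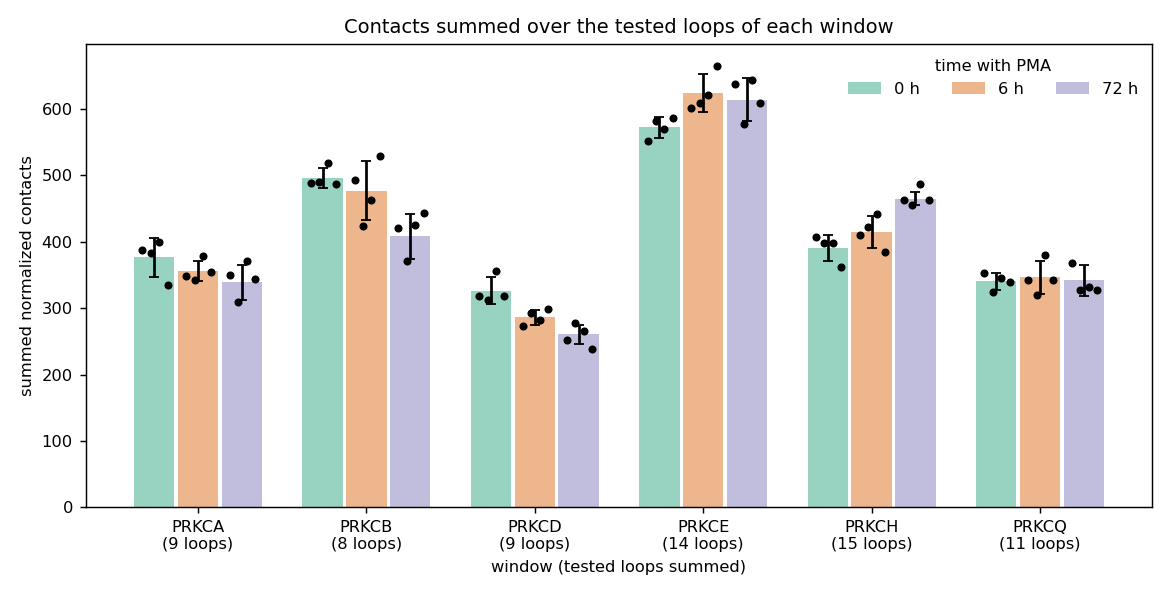
Normalized contacts summed over the tested loops of each window, by time with PMA; bars are means, error bars are SD (n = 4 at 0 h and 6 h, n = 3 at 72 h) and points are the 12 libraries. PRKCB and PRKCD are lowest at 72 h and PRKCH is highest at 72 h, without overlap with 0 h.

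PRKCE, the gene of protein kinase C epsilon, spans chr2:45651279-46187990 on the plus strand, and EPAS1, which encodes the alpha subunit of hypoxia-inducible factor 2, lies downstream of it. Here 2 loops inside PRKCE rose at 72 h, and 2 loops from the gene to distant downstream sequence fell. No PRKCE loop changed at 6 h by edgeR (3 at an unadjusted p under 0.05) or by DESeq2, while 6 of 14 changed between 6 h and 72 h, 2 upward and 4 downward. These 6 are 42.9%, against a background of 20.5%. At 72 h against 0 h the called share was 28.6%, against 33.6%.

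The change with the smallest p in the windows was that of loop3568, a 50 kb loop from the PRKCE start (anchor chr2:45650001-45660000) to an anchor within the gene (chr2:45700001-45710000). It held 65.9, 62.7, 55.2 and 59.1 normalized contacts at 0 h, 65.7, 82.2, 80.7 and 74.8 at 6 h, and 110.6, 104.4, 108 and 99.98 at 72 h. Every 72 h library was above every library of 0 h and of 6 h, and 6 h overlapped 0 h. The means were 60.7 ± 4.61, 75.9 ± 7.49 and 106 ± 3.67, and the loop rose 1.70-fold at 72 h (log2 fold change 0.77, SE 0.12, edgeR adjusted p = 9.28e-08). It also rose from 6 h to 72 h (0.47, SE 0.12, adjusted p = 0.00183), and its value at 6 h against 0 h, 0.29 (SE 0.13), did not pass (adjusted p = 0.181).

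The next loop inside the gene, loop3569, joins chr2:45770001-45780000 to chr2:45930001-45940000 over 160 kb. It held 38.4, 25.6, 23.8 and 44.3 at 0 h, 34.3, 37.4, 31.1 and 37.4 at 6 h, and 49.5, 53.2, 58.2 and 53.6 at 72 h. Here too all 72 h libraries were above the others. It rose 1.56-fold at 72 h against 0 h (log2 fold change 0.64, SE 0.16, edgeR adjusted p = 4.85e-04) and 1.49-fold against 6 h (adjusted p = 0.00475). Of the 4 loops in all windows with both anchors inside the kinase gene, 3 rose at 72 h (both PRKCE loops and loop29925 of PRKCA), and the remaining one, loop26912 of PRKCH, named here only to complete this count, had a log2 fold change of 0.23 with no call. Among the 43 loops with 1 anchor in the gene, 2 rose and 8 fell, and among the 19 with none, 1 rose and 4 fell. Of all 24132 tested loops, 16.7% rose and 16.9% fell, and a group of 4 loops is too small to read a rule from. The call of loop29925 ended with DESeq2 (adjusted p = 0.0683) and within either pair of replicates alone (edgeR adjusted p 0.126 and 0.102).

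Downstream, loop3570 joins PRKCE (chr2:45980001-45990000) over 660 kb to chr2:46640001-46650000, an anchor 9.8 kb from CRIPT, a gene for a small postsynaptic scaffold protein. It held 44.2, 47.5, 50.2 and 50.03 at 0 h, 51.0, 36.5, 43.9 and 51.9 at 6 h, and 24.8, 20.1, 27.0 and 26.8 at 72 h. The 72 h libraries stood below all others. The loop fell 1.85-fold at 72 h (log2 fold change -0.89, SE 0.17, edgeR adjusted p = 7.31e-06). Its parallel, loop3574, joins chr2:46010001-46020000 over 760 kb to chr2:46770001-46780000, 6.9 kb from SOCS5, a suppressor of cytokine signalling.

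That loop held 14.5, 15.2, 25.1 and 21.6 at 0 h, 21.6, 20.6, 26.9 and 20.5 at 6 h, and 7.08, 5.02, 7.28 and 8.93 at 72 h. All 72 h libraries were below the rest, from raw counts of 5 to 10 against 16 to 20 at 0 h. It fell 2.22-fold against 0 h (log2 fold change -1.15, SE 0.26, edgeR adjusted p = 1.55e-04) and 2.64-fold against 6 h (-1.40, SE 0.25, adjusted p = 1.28e-05), the largest fall in the windows. The calls of loop3568, loop3569, loop3570 and loop3574 at 72 h against 0 h held in every alternative fit, within either pair of replicates included. The authors' deposited table also classes loop3568 and loop3569 as gained and loop3570 and loop3574 as lost. Of the other window loops it classes only loop26920 as changed, and 68 of all 73 as static. Every other loop called here at 72 h against 0 h is thus static in it, loop26919, loop5527, loop28585 and loop29924 among them. It gives a fold change for only 56 of the 73, and the loops without one are also classed static. Among these is loop26911, so its class there is not a tested absence of change.

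Another pair of loops connects PRKCE to the body of EPAS1. The 300 kb loop3576 held 41.3, 37.0, 16.3 and 23.9 at 0 h, 43.1, 43.0, 28.3 and 45.8 at 6 h, and 30.1, 28.1, 19.8 and 33.9 at 72 h. The groups overlap in every comparison, and the loop fell only between 6 h and 72 h (log2 fold change -0.50, SE 0.18, edgeR adjusted p = 0.0332). The 180 kb loop3577 had means of 43.0 ± 5.50, 51.5 ± 6.75 and 34.5 ± 3.59 and also fell from 6 h to 72 h (-0.55, SE 0.16, adjusted p = 0.00673), with no overlap between those times. The call of loop3577 ended with DESeq2 (adjusted p = 0.0523). That of loop3576 ended with DESeq2 and without any 1 of 5 libraries (6 h replicates 1, 2 and 4, 72 h replicates 2 and 3; adjusted p 0.0585 to 0.134).

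Not all contacts to EPAS1 fell. A pair of loops picked after their values were seen had no call. The one that reaches an end of EPAS1, loop3575, had 42.9 at 0 h and 47.4 at 72 h with no call (log2 fold change 0.16, edgeR adjusted p = 0.441), and loop3573 to the EPAS1 body had 37.0 and 40.4 (0.20, adjusted p = 0.337). The 10 PRKCE loops without a call at 72 h against 0 h ran from -0.31 to 0.34.

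**Figure D4:**
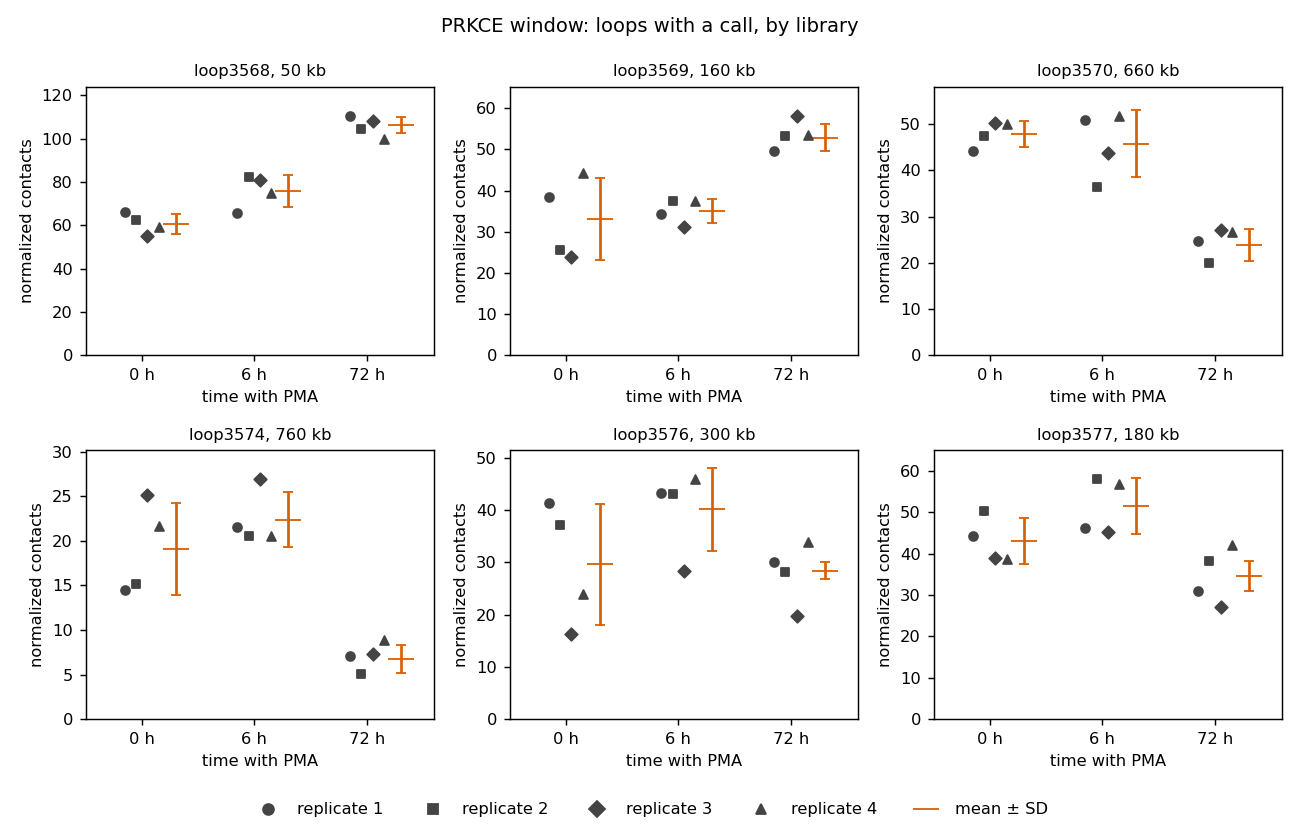
Normalized contacts of 6 PRKCE loops with a call in any comparison, by time with PMA; symbols are biological replicates and orange bars are means ± SD (n = 4 at 0 h and 6 h, n = 3 at 72 h). The 72 h libraries of loop3568 and loop3569 lie above and those of loop3570 and loop3574 lie below all earlier libraries, while loop3576 overlaps between times.

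By the likeness rule, the pattern of loop3568 over the 12 libraries was most like that of loop9177 on chromosome 4 (over MEPE; Pearson r = 0.974), loop14978 on chromosome 6 (0.963), loop23319 on chromosome 12 (ends of BHLHE41 and SSPN; 0.960), loop27921 on chromosome 15 (0.959) and loop2322 on chromosome 1 (over NME7; 0.955). These are the highest of all tested loops outside the windows and share the libraries and their depth, so the values only describe who resembles whom.

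PRKCH, the gene of protein kinase C eta, spans chr14:61187468-61550976 on the plus strand, with HIF1A and SYT16, a synaptotagmin family gene, downstream. Of 15 tested PRKCH loops, 3 rose and 1 fell at 72 h, 26.7% called against the background of 33.6%. Of the 15, 13 had a log2 fold change above 0, and 11 of the 15 had no call. How many of all tested loops lay above 0 was not counted. Several of the 15 share an anchor, so they are not separate observations. None changed at 6 h by edgeR or DESeq2 (0 at an unadjusted p under 0.05 by edgeR). The anchor chr14:61290001-61300000 lies within the PRKCH span, with its centre at -26.6 kb from the transcript start used. From it loop26911, the largest rise in the windows, runs over 830 kb to chr14:62120001-62130000, 7.2 kb from SYT16.

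It held 4.35, 2.85, 7.53 and 12.5 at 0 h, 6.86, 13.1, 8.49 and 6.03 at 6 h, and 16.8, 14.1, 18.7 and 18.8 at 72 h. All 72 h libraries stood above the rest, on raw counts of 3 to 11 at 0 h and 14 to 21 at 72 h. It rose 2.29-fold at 72 h (log2 fold change 1.19, SE 0.27, edgeR adjusted p = 2.50e-04) and 1.77-fold from 6 h to 72 h (adjusted p = 0.0195). The second loop to that distal anchor, loop26915, starts further inside PRKCH and rose 1.49-fold (16.3 ± 0.98 at 0 h, 25.5 ± 0.95 at 72 h; log2 fold change 0.57, SE 0.21, adjusted p = 0.0223).

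The HIF1A promoter loop, loop26919, joins chr14:61690001-61700000 over 130 kb to chr14:61560001-61570000, 9.0 kb past the end of PRKCH. It held 36.9, 27.5, 42.7 and 33.0 at 0 h, 43.1, 29.9, 42.5 and 36.2 at 6 h, and 57.5, 47.2, 47.8 and 48.2 at 72 h. The 72 h libraries were above all others. It rose 1.42-fold at 72 h (log2 fold change 0.51, SE 0.16, edgeR adjusted p = 0.00625), and its value against 6 h, 0.41, did not pass (adjusted p = 0.0515). A loop from PRKCH to the HIF1A body, loop26918, also picked after its value was seen, had a log2 fold change of 0.30 with no call (adjusted p = 0.164).

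The fall in this window was loop26920, 160 kb from chr14:61670001-61680000, 15.5 kb before HIF1A, to SYT16 at chr14:61830001-61840000. It held 26.1, 26.6, 16.3 and 18.2 at 0 h, 20.6, 16.8, 32.6 and 26.5 at 6 h, and 8.85, 6.02, 14.6 and 14.3 at 72 h, below every other library. It fell 1.90-fold against 0 h (log2 fold change -0.93, SE 0.23, edgeR adjusted p = 8.17e-04) and 1.95-fold against 6 h (adjusted p = 0.00148), and the authors' deposited table classes it as lost. Its SYT16 anchor is shared with loop26910, from PRKCH over 540 kb, which rose from 6 h to 72 h (15.9 ± 4.15 to 25.7 ± 2.27; log2 fold change 0.64, SE 0.21, adjusted p = 0.0222). The third loop of that anchor, loop26914 to PRKCH over 380 kb, picked after its value was seen, held 57.2 ± 4.39, 64.8 ± 7.92 and 62.4 ± 3.44 at 0 h, 6 h and 72 h with no call (-0.06 from 6 h to 72 h, adjusted p = 0.804). So 1 of these 3 loops rose, 1 fell and 1 had no call between 6 h and 72 h.

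The rise of loop26915 ended with a correction for loop length (log2 fold change 0.41, edgeR adjusted p = 0.124), with DESeq2 (adjusted p = 0.0971), and without any 1 of 4 libraries (0 h replicates 1 and 3, 72 h replicates 1 and 3; 0.0507 to 0.0676). Other calls that ended without 1 library were loop26919 (0 h replicate 2; 0.0533), loop26910 (6 h replicate 3 or 72 h replicate 4; 0.058 to 0.0946) and the 72 h against 6 h call of loop26911 (6 h replicate 1 or 4, 72 h replicate 4; 0.0532 to 0.082). The fall of loop26920 against 0 h was -0.23 within replicates 3 and 4 alone (adjusted p = 0.674). Within that pair the rises of loop26911 (0.76, adjusted p = 0.125) and loop26919 (0.34, adjusted p = 0.288) at 72 h against 0 h did not pass either.

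PRKCD, the gene of protein kinase C delta, is the shortest of the 6 at 31.5 kb (chr3:53161209-53192717, plus strand). SFMBT1, a chromatin reader, lies upstream of it. All 4 PRKCD-window loops that changed at 72 h fell, and the median log2 fold change of its 9 tested loops was -0.44. These 4 are 44.4% of the 9, against the background of 33.6%. The loop with the smallest p at 6 h, loop5530, ends at the 3′ end of PRKCD (chr3:53190001-53200000) and spans the kinase gene over 80 kb.

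It held 112.3, 102.5, 107 and 109 at 0 h, 75.5, 86.0, 72.2 and 77.2 at 6 h, and 87.6, 84.3, 92.6 and 82.1 at 72 h. All later libraries were below all 0 h libraries, and 6 h and 72 h overlapped. It fell 1.37-fold at 6 h (log2 fold change -0.45, SE 0.12, edgeR adjusted p = 0.0079) and 1.24-fold at 72 h (-0.31, SE 0.11, adjusted p = 0.0221), and did not differ past the threshold between 6 h and 72 h (0.14, adjusted p = 0.43). It and loop29926 of PRKCA were the 2 loops called at 6 h.

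The same 3′ end of PRKCD also meets STIMATE, a regulator of store-operated calcium entry, over 350 kb. That loop5523 held 19.6, 24.7, 20.1 and 21.6 at 0 h, 23.5, 19.6, 15.6 and 20.5 at 6 h, and 8.85, 22.1, 13.5 and 11.6 at 72 h, where replicate 2 overlapped 0 h. It fell 1.48-fold (log2 fold change -0.57, SE 0.22, edgeR adjusted p = 0.0368). The other 2 falls have no anchor in the kinase gene. They were loop5527, which fell 1.5-fold (49.9 ± 14.5 to 31.8 ± 4.36; -0.59, SE 0.16, adjusted p = 0.00214), and loop5528, which fell 1.36-fold (50.9 ± 4.01 to 36.9 ± 1.11; -0.44, SE 0.15, adjusted p = 0.0172). A further loop across PRKCD, loop5531, reaches within 2.5 kb of DCP1A, a gene of mRNA decapping, and did not pass (-0.52, adjusted p = 0.0693).

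With the correction for loop length, neither call of loop5530 passed (log2 fold change -0.36, edgeR adjusted p = 0.055 at 6 h, and -0.22, adjusted p = 0.118 at 72 h), and its 72 h call also ended without 0 h replicate 1 or 72 h replicate 4 (0.0588 to 0.0613). The loop5523 call ended without any 1 of 5 libraries (0 h replicates 2 and 4, 72 h replicates 1, 3 and 4; 0.0522 to 0.175).

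PRKCQ, the gene of protein kinase C theta, known for its role in T cell receptor signalling, spans chr10:6394097-6580646 on the minus strand. IL2RA, RBM17 and PFKFB3 lie beyond its 3′ end. None of the 11 tested PRKCQ loops changed at 6 h or at 72 h against 0 h by edgeR, with 1 and 3 at an unadjusted p under 0.05, or by DESeq2, but 3 fell between 6 h and 72 h. These 3 falls are 27.3%, against a background of 20.5%. The first, loop19922, joins IL2RA, the gene of the interleukin-2 receptor alpha chain, over 380 kb to the 3′ end of PRKCQ (chr10:6390001-6400000).

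It held 26.8, 15.2, 31.4 and 20.5 at 0 h, 42.2, 30.8, 25.5 and 22.9 at 6 h, and 17.7, 22.1, 14.6 and 11.6 at 72 h. The 6 h and 72 h libraries did not overlap, and 0 h overlapped both. The loop fell 1.80-fold from 6 h to 72 h (log2 fold change -0.85, SE 0.21, edgeR adjusted p = 0.00147), after values against 0 h of 0.39 at 6 h (adjusted p = 0.249) and -0.46 at 72 h (adjusted p = 0.0827). The other 2 falls share an anchor upstream of the PRKCQ start (chr10:6670001-6680000).

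From that anchor, loop19925 reaches RBM17, a splicing factor gene, and loop19927 reaches PFKFB3, a gene of fructose-2,6-bisphosphate metabolism. The means of loop19925 were 13.7 ± 3.72, 18.1 ± 5.05 and 9.48 ± 2.82 at 0 h, 6 h and 72 h (72 h against 6 h: log2 fold change -0.71, SE 0.25, edgeR adjusted p = 0.0338). Those of loop19927 were 13.99 ± 0.86, 17.5 ± 5.75 and 9.22 ± 5.16 (-0.88, SE 0.26, adjusted p = 0.0105). For both, single libraries of 6 h and 72 h overlapped.

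A shorter contact had close means at 0 h and 72 h. The loop from PFKFB3 to the PRKCQ 3′ end, loop19926, held 71.0, 71.2, 59.0 and 62.5 at 0 h and 69.9, 71.3, 61.4 and 66.1 at 72 h, with a log2 value of 0.01 (SE 0.13, edgeR adjusted p = 0.96). The strongest PRKCQ loop, loop19928, runs from inside the gene past its start to chr10:6660001-6670000 and had 103 ± 9.08, 85.7 ± 12.04 and 99.0 ± 10.8 with no call. The loop19925 call ended without any 1 of 5 libraries (6 h replicates 2, 3 and 4, 72 h replicates 1 and 2; adjusted p 0.0653 to 0.146), and that of loop19927 without 6 h or 72 h replicate 1 (0.061 to 0.0966).

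PRKCA, the gene of protein kinase C alpha, spans chr17:66302613-66810743 on the plus strand, between APOH, the apolipoprotein H gene, and CACNG5, a gene of the calcium channel gamma and AMPA receptor regulator family. At 72 h 1 of 9 loops rose and 2 fell, 33.3% called against the background of 33.6%. The loop nearest the start, loop29924, joins chr17:66290001-66300000, 2.6 kb before the gene, over 130 kb to chr17:66420001-66430000 in PRKCA. It held 55.8, 49.4, 66.5 and 42.1 at 0 h, 56.9, 42.1, 39.6 and 57.9 at 6 h, and 35.4, 38.2, 41.6 and 29.5 at 72 h, all below 0 h.

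It fell 1.46-fold at 72 h against 0 h (log2 fold change -0.54, SE 0.15, edgeR adjusted p = 0.00303). The anchor where it ends is also the start of loop29925, a 240 kb loop further into PRKCA, which rose. That loop held 18.8, 6.65, 13.8 and 10.2 at 0 h, 19.6, 18.7, 11.3 and 18.1 at 6 h, and 21.2, 23.1, 17.7 and 25.0 at 72 h, where replicate 3 overlapped 0 h. It rose 1.60-fold (0.68, SE 0.23, adjusted p = 0.0125).

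At the other end of the gene, loop29926 joins PRKCA (chr17:66710001-66720000) over 190 kb to chr17:66900001-66910000, 5.2 kb from CACNG5. It held 66.6, 67.4, 69.0 and 60.3 at 0 h, 48.0, 51.4, 53.8 and 41.0 at 6 h, and 57.5, 48.2, 45.8 and 47.3 at 72 h. Every later library was below every 0 h library. It fell 1.34-fold at 6 h (log2 fold change -0.43, SE 0.14, edgeR adjusted p = 0.0465) and 1.31-fold at 72 h (-0.39, SE 0.14, adjusted p = 0.0179).

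The longest PRKCA loop named here, loop29920, spans the gene from near APOH to CACNG5 and fell from 6 h to 72 h (34.1 ± 4.02 to 22.4 ± 3.14; log2 fold change -0.52, SE 0.19, edgeR adjusted p = 0.0377). Its call ended without any 1 of 6 libraries (6 h replicates 2, 3 and 4, 72 h replicates 1, 2 and 4; 0.055 to 0.118), as did the 6 h call of loop29926 (0 h replicates 1, 2 and 3, 6 h replicates 1, 2 and 4; 0.0697 to 0.134). The loop29925 call ended without 0 h replicate 2 or 72 h replicate 4 (0.0508 to 0.114), and loop29924 also fell from 6 h to 72 h (adjusted p = 0.0375), which ended without any 1 of 4 libraries (6 h replicates 1 and 4, 72 h replicates 1 and 4; 0.0729 to 0.155).

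PRKCB, the gene of protein kinase C beta, spans chr16:23835983-24220611 on the plus strand. CHP2, a calcineurin-like calcium-binding protein gene, lies before it and CACNG3, of the same channel family as CACNG5, after it. At 72 h 3 of 8 loops fell and none rose, 37.5% called against the background of 33.6%. All 8 had a log2 fold change below 0, with a median of -0.25, but 5 of the 8 had no call. Several share an anchor, so they are not separate observations. How many of all tested loops lay below 0 was not counted. The largest fall, loop28585, spans PRKCB over 520 kb from chr16:23740001-23750000, 5.0 kb from CHP2, to CACNG3 (chr16:24260001-24270000).

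It held 31.9, 32.3, 27.6 and 29.6 at 0 h, 20.6, 27.1, 18.4 and 24.1 at 6 h, and 9.73, 13.1, 18.7 and 25.9 at 72 h. Every later library was below every 0 h library, and 72 h spread widely, with replicates 3 and 4 highest. It fell 1.73-fold at 72 h (log2 fold change -0.79, SE 0.20, edgeR adjusted p = 9.57e-04), and its 6 h value of -0.39 did not pass (adjusted p = 0.24). Within replicates 3 and 4 alone the 72 h value was -0.32 (adjusted p = 0.449).

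The other falls were smaller. From near CHP2 into PRKCB over 300 kb, loop28583 fell 1.23-fold (86.2 ± 7.06 to 68.0 ± 2.99; edgeR adjusted p = 0.0447 against 0 h and 0.0416 against 6 h). From PRKCB to CACNG3, loop28588 fell 1.30-fold (47.3 ± 7.01 to 36.1 ± 2.51; adjusted p = 0.0466). The loop of the windows with the most contacts at 0 h and 6 h, loop28586, joins sequence 26 kb before PRKCB to the gene and held 116 ± 6.56, 120.3 ± 23.0 and 95.02 ± 2.30.

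It fell from 6 h to 72 h (log2 fold change -0.32, SE 0.11, edgeR adjusted p = 0.0305) and did not pass against 0 h (-0.27, adjusted p = 0.0529), though all its 72 h libraries lay below all 0 h libraries. These calls lay close to the threshold. Leaving out 1 library ended the calls of loop28583 against 0 h (0 h replicates 1 and 3, 72 h replicates 1, 2 and 3; adjusted p 0.0645 to 0.116) and against 6 h (6 h replicates 2, 3 and 4, 72 h replicates 1, 2 and 3; 0.0647 to 0.152), of loop28588 (0 h replicates 2 and 4, 72 h replicates 2, 3 and 4; 0.0527 to 0.147) and of loop28586 (6 h replicates 1 and 4, 72 h replicates 1, 2 and 3; 0.0533 to 0.16).

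**Figure D5:**
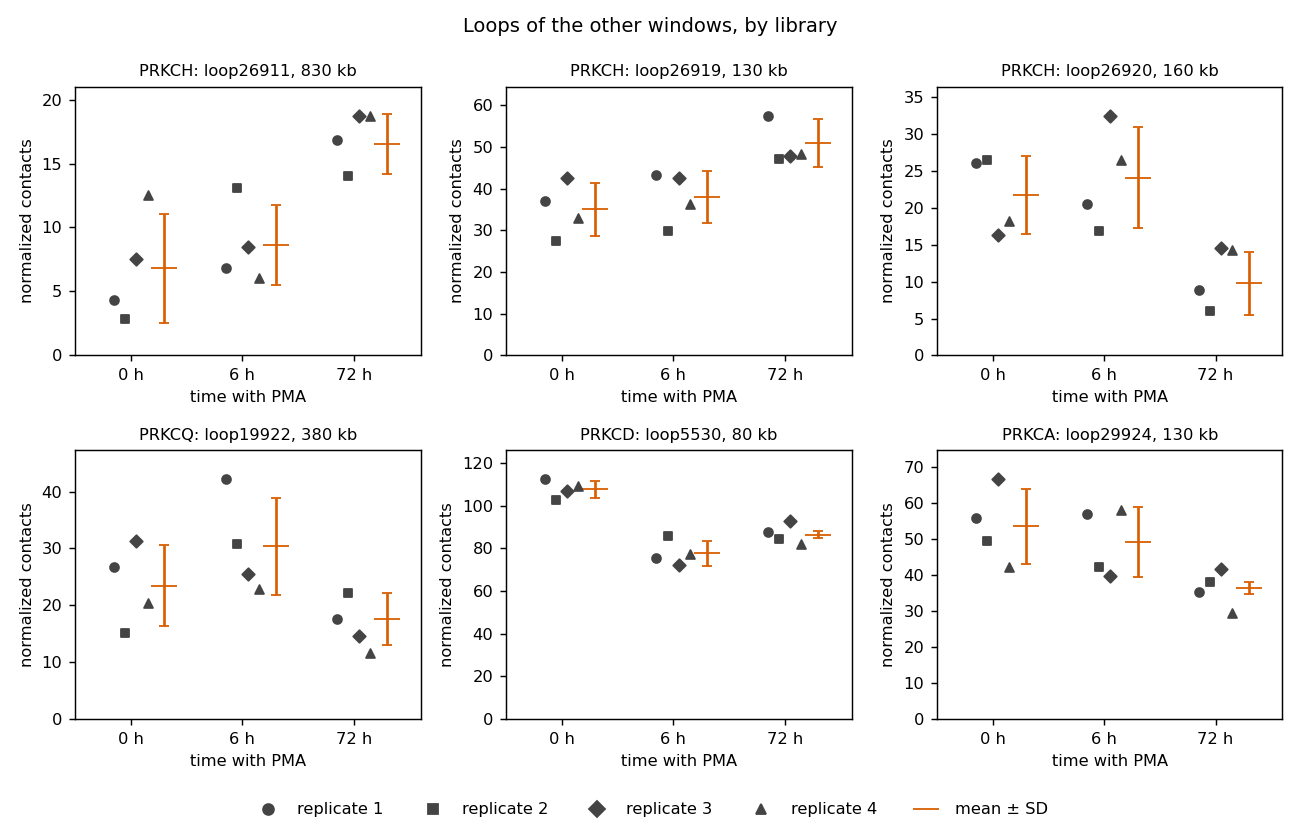
Normalized contacts of 6 loops from the PRKCH, PRKCQ, PRKCD and PRKCA windows, by time with PMA; symbols are biological replicates and orange bars are means ± SD (n = 4 at 0 h and 6 h, n = 3 at 72 h). The loop5530 libraries are already lower at 6 h, loop26911 and loop26919 are higher at 72 h, and loop19922 separates only 6 h from 72 h.

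The 7 member loops that were not tested were 4 at PRKCH, 2 at PRKCQ and 1 at PRKCD. They were 600 to 2890 kb long, and no 0 h library held more than 11 raw contacts in any of them. The 2 PRKCQ loops end at the same distant anchor (chr10:9300001-9310000), and from inside PRKCQ loop19930 held 0 to 4 raw contacts at 0 h, 1 to 4 at 6 h and 4 to 14 at 72 h. From the anchor upstream of PRKCQ, loop19934 held 1 to 7, 2 to 8 and 9 to 14. Both counts are highest at 72 h, but at these depths they are values with no call.

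The wider pathway was read from 56 genes listed for their place in diacylglycerol and phorbol ester signalling, of which 39 had a loop over some part of the gene. These genes had 176 loops outside the windows, and 131 were tested. At 6 h 2 rose and none fell, 1.53% against the background of 6.41%. They were loop25 at an end of PRKCZ, the phorbol-insensitive zeta isoform (125 ± 4.03 to 158 ± 8.92; log2 fold change 0.33, SE 0.10, edgeR adjusted p = 0.0311), and loop30935 over RASGRP4, a Ras activator with a C1 domain (0.61, SE 0.19, adjusted p = 0.0331). DESeq2 called neither. Both calls ended without 0 h replicate 1 or 2 or 6 h replicate 1 or 2, each of which left 0. Both also ended without 6 h replicate 3, where 1 other loop fell, and without 0 h replicate 3 the 2 calls were 1 rise and 1 fall.

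At 72 h 41 of 131 pathway loops changed, 30 upward and 11 downward, 31.3% against the background of 33.6%. The median log2 fold change was 0.12, against 0.01 for all tested loops. With the correction for loop length the count was 31, 18 upward and 13 downward. With scaling to the total count it was 43, 34 upward and 9 downward. Without a filter it was 43 of 176, 26 upward and 17 downward, so the split depends on the processing. DESeq2 called 19 (15 upward and 4 downward), and replicates 1 and 2 alone and 3 and 4 alone gave 22 and 20.

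Among partners and substrates of the kinases, 8 of 17 loops rose and none fell, where 16.7% of all tested loops rose and 16.9% fell; called either way these are 47.1% against 33.6%. They were 4 of 6 loops at MARCKS, a major membrane-bound protein kinase C substrate, and 4 of 8 at AKAP12, a scaffold that holds protein kinases C and A. All 6 MARCKS loops end in adjoining anchors, starting at chr6:113850001 or chr6:113860001. The AKAP12 anchors of the 8 tested loops start between chr6:151240001 and chr6:151330001. The loops of each gene are therefore not separate observations. The correction for loop length was not read for this group alone. The MARCKS rises ran from 0.63 to 0.98 in log2 fold change, led by loop14671 (10.7 ± 1.11 to 23.5 ± 2.25; SE 0.23, edgeR adjusted p = 2.99e-04), chosen for naming after its value was seen. The AKAP12 rises ran from 0.41 to 0.68. All 3 tested loops of PDPK1, the kinase that primes protein kinase C by phosphorylation, stayed without a call.

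Of the diacylglycerol kinases, which remove the natural activator, 13 of 43 loops rose and 1 fell, which is 32.6% called either way against the background of 33.6%. The rises were 5 at DGKB, 3 at DGKI, 2 each at DGKG and DGKK and 1 at DGKH. The largest of the whole list was loop16868, a 1780 kb loop to DGKI, with 3.62, 5.70, 8.78 and 11.4 at 0 h, 11.8, 15.9, 11.3 and 12.1 at 6 h, and 17.7, 19.1, 14.6 and 21.4 at 72 h, above 0 h in every library (log2 fold change 1.199, SE 0.26, edgeR adjusted p = 1.21e-04). Within replicates 3 and 4 alone loop16868 did not pass (0.73, adjusted p = 0.145). The only fall, loop16879, lies at the same gene over 200 kb (56.0 ± 2.73 to 28.2 ± 3.90; -0.94, SE 0.16, adjusted p = 5.06e-07) and was the largest fall of the list.

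Of the phospholipase C genes, which make diacylglycerol, 5 of 39 loops rose and 4 fell, 23.1% called either way against the background of 33.6%. The largest rises were loop7381 at PLCH1 over 1360 kb (4.78 ± 2.98 to 13.0 ± 3.03; log2 fold change 1.15, SE 0.30, edgeR adjusted p = 0.00107) and loop31271 at PLCB1 over 2580 kb (3.87 ± 2.10 to 11.9 ± 2.72; 1.13, SE 0.32, adjusted p = 0.00286). The rise of loop31271 ended with the correction for loop length (0.67, adjusted p = 0.103) and within replicates 3 and 4 alone (1.08, adjusted p = 0.0974). That of loop7381 ended within replicates 1 and 2 alone (0.56, adjusted p = 0.335). Of the other diacylglycerol receptors 2 of 18 loops rose, at CHN1 and RASGRP1, and 1 fell, at RASGRP4. These are 16.7% called either way, also below the background of 33.6%.

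The phorbol-insensitive PRKCI, the iota isoform, had 2 of 3 loops fall, led by loop7667 (19.4 ± 4.63 to 10.1 ± 3.12; log2 fold change -0.68, SE 0.24, edgeR adjusted p = 0.0188), which ended without 0 h replicate 3 or 72 h replicate 1 (0.0739 to 0.0983). Neither tested PRKCZ loop changed at 72 h. The 1 loop of protein kinase D, at PRKD2, fell (-0.43, adjusted p = 0.0254). In the MAP kinase arm downstream, 1 of 3 BRAF loops rose and 1 fell, and 1 of 2 ARAF loops fell, where loop33165 went from 58.2 ± 10.9 to 36.4 ± 2.98 (-0.64, SE 0.15, adjusted p = 4.47e-04). Within replicates 1 and 2 alone loop33165 did not pass (-0.42, adjusted p = 0.135). Of all 24132 tested loops, 16.7% rose and 16.9% fell at 72 h. The members of this list were not compared with other gene lists.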

How the data were processed

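Per the file headers, the deposited table gives the raw count of contacts of each loop in 30 columns of technical replicates, and all were used. It also holds the authors' deposited log2 fold changes, an adjusted p-value and a class. The submitters' processing notes name Juicer 1.5.6, DESeq2, DESeq and hg38 without roles. Technical replicates were summed into 12 libraries. All 33914 loops were filtered with filterByExpr (minimum count 10, minimum total 15; 24132 kept) and then fitted by the quasi-likelihood test of edgeR 4.0.16, run in R 4.3.3 (TMM scaling, no covariate, prior count 2, Benjamini-Hochberg over all tested loops). A standard error is the log2 fold change over the root of F. No background was subtracted, and counts fall with loop length.

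Members, lists, and alternatives were chosen with earlier results of these data known. Loops were named when they had the smallest p of their window in a comparison, passed a test (up to 6 per window), had an end of the kinase gene in an anchor, or were classed gained or lost by the authors; of the pathway list, the 3 largest rises and falls. Gene positions and promoters are RefSeq's, GRCh38.p14; all 56 listed genes matched, and exons and introns were not used here. Anchor positions are counted from 1. Alternatives, in the closing section, were DESeq2 1.42.0, other scalings, no filter, a replicate block, a batch term, a length offset (loess span 0.3), other thresholds and left-out libraries. Some genes at the anchors and in the pathway list are not reported here, although the counts include their loops.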

Additional observations from a re-analysis of the deposited data

Results flagged for a closer look

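In 5 of 60 groups of 4 libraries of the named loops, 1 library stood apart from its group by Dixon's test, which chance flags in about 1 group in 20. They were loop19928 (PRKCQ) at 6 h, where replicate 4 held 104 normalized contacts, loop3574 (PRKCE) at 6 h, replicate 3 with 26.9, loop3576 (PRKCE) at 6 h, replicate 3 with 28.3, loop5527 (PRKCD) at 0 h, replicate 3 with 71.5, and loop5531 (PRKCD) at 0 h, replicate 2 with 13.3. The fall of loop5527 at 72 h passed the edgeR test without each library in turn, but not within replicates 1 and 2 alone (-0.46, adjusted p = 0.122).

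In 11 loops the fitted changes at 6 h and at 72 h against 0 h had opposite signs, and the difference between these times passed the edgeR test. The log2 fold changes of 72 h against 6 h were -1.40, -0.50 and -0.55 for loop3574, loop3576 and loop3577 of PRKCE, -0.85, -0.71 and -0.88 for loop19922, loop19925 and loop19927 of PRKCQ, and 0.64 and -0.96 for loop26910 and loop26920 of PRKCH. They were -0.34 and -0.32 for loop28583 and loop28586 of PRKCB, and -0.52 for loop29920 of PRKCA. In 10 of these 11 the 72 h value was the lower. How often this order occurs over all loops was not counted. The 6 h change itself passed in none of them, so the opposite sign at 6 h rests on values without a call. The 72 h change against 0 h passed only for loop3574, loop26920 and loop28583. In the other loops the sign at 72 h also rests on values without a call. The cause of these differences was not tested.

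A test of whether the change differed between replicates 1 and 2 and replicates 3 and 4 called no member loop by edgeR, with 8 at an unadjusted p under 0.05 for 6 h and 6 for 72 h. DESeq2 was not run for it.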

How the results depend on the processing

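Counts of changed member loops (2 at 6 h against 0 h, 18 at 72 h against 0 h, 16 at 72 h against 6 h) and pathway loops (2 and 41) moved as follows, in that order. DESeq2 gave 1, 10, 6, 0 and 19. Replicates 1 and 2 alone gave 0, 9, 7, 0 and 22, and replicates 3 and 4 alone 0, 6, 5, 0 and 20. An adjusted p under 0.01 gave 1, 10, 7, 0 and 22, and a fold change of at least 1.5 gave 0, 9, 8, 1 and 24. The 6 h member count was 1 with scaling to the total count, with the length offset (a rise, of loop3568) and after summing replicates 3 and 4 throughout. The 6 h pathway count was 0 without a filter, 1 with the length offset, 1 with those replicates summed, and 1 for loops with a gene end in an anchor, where the 72 h count was 13 of 37. Without a filter the 72 h member count was 23 of 73. Leaving out 1 library gave 1 to 2, 14 to 19 and 10 to 17 for members, and 0 to 3 and 33 to 44 for the pathway.

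Over all loops, DESeq2 called 438, 4977 and 1979 against 1546, 8105 and 4945, the length offset 1001 at 6 h, and replicates 1 and 2 alone 526, 4947 and 2400.

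With the replicate block, the counts were 2, 19, 19, 3 and 46. Over all loops the block gave 1938, 8560 and 5472 against 1546, 8105 and 4945. Same-numbered libraries of different times correlated at 0.013 to 0.122 in their deviations from the group means, and libraries of different number at -0.073 to 0.044. The main fit did not take the numbers as pairs, and these small values do not settle whether they are.

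Of 36 called changes in the windows, 7 kept direction and call in every alternative fit and 15 in every fit other than those of a replicate pair alone. Direction reversed for loop19926 at 72 h (0.01; -0.056 without a filter, -0.025 in replicates 1 and 2, -0.042 to 0.039 leaving out 1 library), loop29920 (0.34 in replicates 3 and 4) and loop3576 (0.39 in replicates 3 and 4, -0.309 to 0.064 leaving out 1 library, above 0 without 0 h replicate 1), all without a call; the cause was not tested. The PRKCH sum at 72 h over 0 h was 1.19, 1.23 with scaling to the total count and 1.14 without a filter. Depth limits loops under about 10 contacts, and the samples used here hold 1 cell line and no culture kept for 72 h without PMA.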
